A study of Mus musculus with 6 samples.

Results

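The genes described here are 10 genes of glucose use and of the response to low oxygen: Slc2a1, Hk2, Pfkl, Aldoa, Pgk1, Eno1, Ldha, Pdk1, Bnip3 and Vegfa. They were taken by symbol from the deposited table of gene counts, where 10 of 48587 rows carry these names. The counts come from 6 RNA-seq libraries of neonatal mouse kidney, 3 from littermate controls (Cdh16Cre;Foxp1fl/+;RiboTag) and 3 from Foxp1-deficient animals (Cdh16Cre;Foxp1fl/fl;RiboTag). RiboTag is an allele that adds an HA epitope to a ribosomal protein in cells where Cre is active. Both groups carried this allele and Cdh16Cre, in which a kidney-specific cadherin gene of the tubule epithelium drives Cre. The controls carry 1 floxed Foxp1 copy, so Cre can remove that copy in them as well. Kidneys were taken after cooling anaesthesia and perfusion with saline, and RNA was isolated from anti-HA beads incubated with kidney lysate. The labels call the cells kidney tubular cells. The treatment label reads vehicle treatment for controls and chronic acid load for Foxp1-deficient libraries, and the protocols describe no acid load. Genotype and treatment therefore cannot be told apart. The labels give the age only as neonatal. They do not say whether the replicates came from separate animals, so the p-values here speak only of variation among these libraries, and that variation may be technical.

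Glycolysis splits glucose to pyruvate in the cytosol, and lactate dehydrogenase can then turn pyruvate to lactate so that the pathway keeps running without oxygen. When oxygen is low, hypoxia-inducible factors (HIF), made of an alpha subunit and ARNT, escape degradation and bind short DNA motifs with the core ACGTG or GCGTG, and the genes described here are textbook targets of these factors. In the kidney, the proximal tubule of the adult relies mainly on oxidation of fatty acids and makes glucose, whereas immature kidney cells rely more on glycolysis, and the tubule is a tissue where low oxygen is met in health and disease. Foxp1 encodes a forkhead transcription factor.

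Library totals ranged from 9710048 to 18958196 counts, and 14311 genes passed the filter on low counts. All 10 genes passed it, with at least 18 counts in every library. Levels are given as CPM, counts scaled to a fixed library size, adjusted between libraries by TMM, which corrects for differences in composition. The libraries numbered 2 in both groups stood apart, with 13885 and 14285 genes detected, against 18241 to 22190 in the other 4. Equal numbers were taken to pair the libraries, because libraries with the same number deviated together from their group means (r = 0.68 to 0.72 across genes). For different numbers r was -0.55 to 0.11, in part because deviations from a group mean sum to 0. The fits with a block for the replicate number rest on this pairing. The 14 tubule markers, which include the Cre driver gene, summed to 38.6 to 458 CPM in controls and 62.8 to 561 CPM in Foxp1-deficient libraries, with the highest sums in the libraries numbered 3. In the libraries numbered 1 and 2, from 3 to 9 of these 14 markers were at 0 counts. Lrp2 alone was most of the sum in control 1 (33.1 CPM), control 2 (32.5 of 64.4 CPM), Foxp1-deficient 1 (52.5 CPM) and Foxp1-deficient 2 (120.6 CPM). The driver gene Cdh16 was at 0.33, 10.9 and 43.0 CPM in controls 1 to 3. In the same-numbered Foxp1-deficient libraries it was at 0.28, 2.42 and 42.1 CPM, with 5 counts in each library numbered 1. The 10 stroma markers summed to 15900 to 24450 CPM in controls and 6707 to 22360 CPM in Foxp1-deficient libraries, far above the tubule markers in every library. In such bulk pulldowns, fewer cells of a type and less RNA per cell cannot be told apart.

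For Foxp1, the targeted gene, controls 1 to 3 were at 48.8, 30.8 and 35.9 CPM, and the Foxp1-deficient libraries at 34.6, 11.4 and 29.3 CPM in the same order. In all 3 pairs the control was the higher library, but the groups overlapped. The log2 fold change was -0.62 (SE 0.49, edgeR quasi-likelihood test, unadjusted p = 0.246, Benjamini-Hochberg adjusted p = 0.9998), and a block for the replicate number gave -0.72 (unadjusted p = 0.0496, adjusted p = 0.853). The counts cover all exons, and counts on the deleted part were not analysed here.

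None of the 10 genes passed the test between Foxp1-deficient and control libraries. Slc2a1, the main facilitative glucose transporter of many developing cells, had the largest log2 fold change, with 129 ± 42.9 CPM in controls and 272 ± 137 CPM in Foxp1-deficient libraries (SD, n = 3 each). The enzymes from hexokinase to lactate dehydrogenase, the pyruvate dehydrogenase kinase Pdk1, the mitophagy receptor Bnip3 and the growth factor Vegfa each differed by less than 1 SE of their log2 fold change without the replicate block. With the block, 7 of these 9 exceeded 1 SE, with the largest at 1.54 SE (Bnip3), and none of the 9 reached an unadjusted p under 0.05. By edgeR at an adjusted p of 0.05, 0 of the 10 genes and 0% of all genes tested were called, without or with the block. At an unadjusted p under 0.05, 0 of the 10 genes and 0.72% of all genes passed without the block, and 1 of the 10, Slc2a1, and 5.32% of all genes with it. DESeq2 without a block called 0 of the 10 and 0.0419% of all genes, and limma-voom called 0 of the 10 without or with a block (1.7% of all genes with it). DESeq2 with the block called 1 of the 10, again Slc2a1, and 1.19% of all genes.

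**Figure D1:**
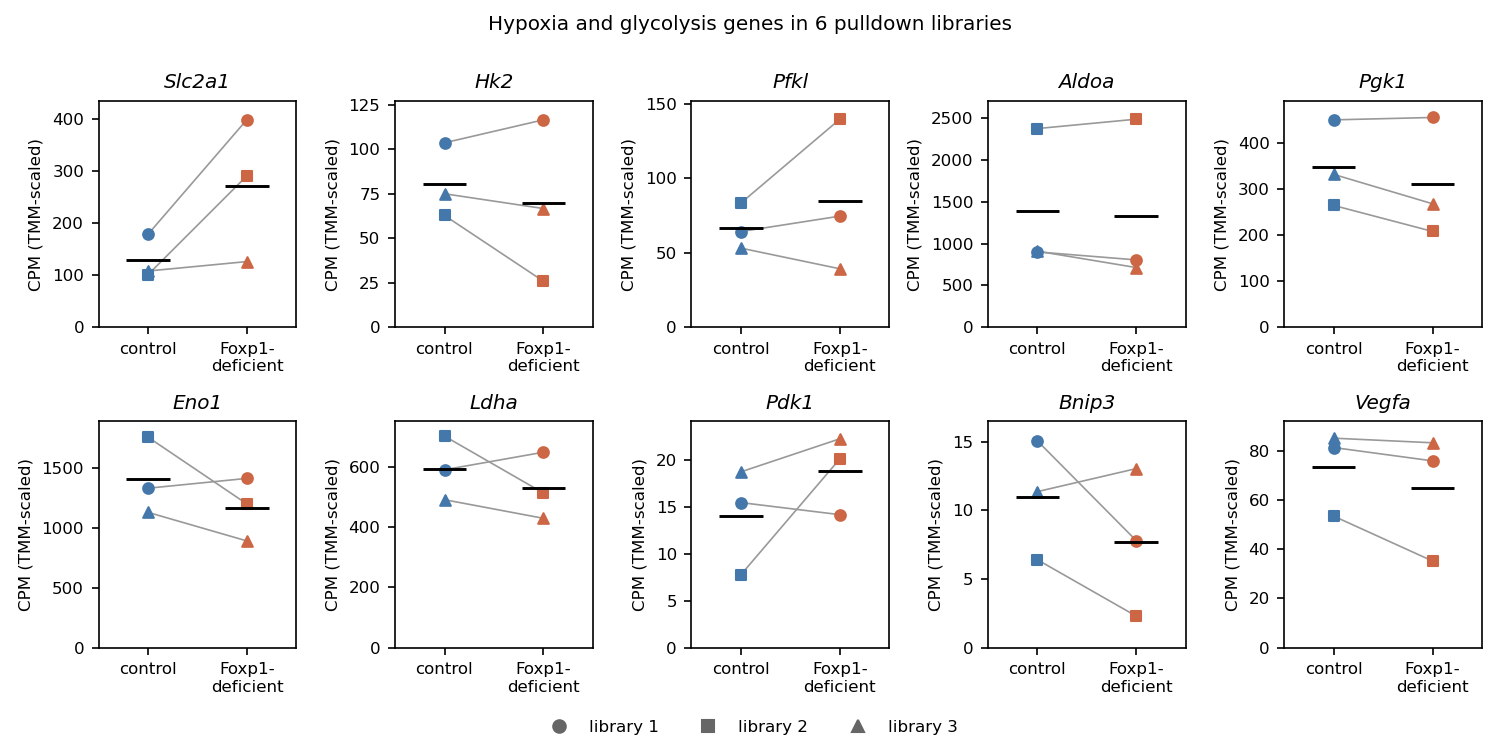
TMM-scaled CPM (vertical axes, starting at 0) of each of the 10 genes in the 3 control and 3 Foxp1-deficient libraries, with the symbol giving the library number, grey lines joining libraries of equal number and black bars the group means. Slc2a1 is higher in the Foxp1-deficient library of all 3 pairs (398, 290 and 126 CPM against 178, 101 and 108), and Aldoa is at 2372 and 2484 CPM for number 2 and at 713 to 909 CPM in the other 4.

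Glucose entry was represented by Slc2a1 (GLUT1; mm10, chromosome 4, 119108711 to 119137983). Controls 1 to 3 were at 178, 101 and 108 CPM, and the Foxp1-deficient libraries at 398, 290 and 126 CPM in the same order. The Foxp1-deficient library was the higher of each pair, by 1.15, 1.51 and 0.22 on the log2(CPM + 1) scale, yet the groups overlapped, because Foxp1-deficient 3 lay below control 1. The difference was therefore carried by pairs 1 and 2 and was small in pair 3. On the log2 scale the difference was 1.07 (SE 0.51, unadjusted p = 0.0728, adjusted p = 0.9998 by edgeR). The replicate block gave 0.97 by edgeR (SE 0.28, adjusted p = 0.853, unadjusted p = 0.0169), with an adjusted p of 0.0327 by DESeq2 and 0.107 by limma-voom. Over all 22 alternatives the estimate stayed positive, from 0.64 to 1.41, with adjusted p from 0.0327 to 1. Leaving out Foxp1-deficient 1, the highest library, gave 0.67, and leaving out both libraries numbered 2 gave 0.88, or 0.70 with the block (adjusted p = 0.343 by edgeR).

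The related high-affinity transporter Slc2a3 (GLUT3), named after its values were seen, was at 31.6, 20.2 and 22.2 CPM in controls 1 to 3, against 44.5, 31.6 and 24.2 CPM in the same-numbered Foxp1-deficient libraries. It too was higher in the Foxp1-deficient library of 3 of 3 pairs and did not pass the test (log2 fold change 0.44, SE 0.40, adjusted p = 0.9998 by edgeR). Most markers of mesothelium, the cell layer that covers organs, also had a positive estimate, and none was called by edgeR. All 6 of these markers were detected in every library, and their sum was 1766 to 2657 CPM in controls and 3009 to 6791 CPM in Foxp1-deficient libraries, without overlap. Control 2 had the highest of the control sums (2657 CPM) but the lowest Slc2a1 of all 6 libraries. Msln, the mesothelin gene, was 416 ± 236 CPM in controls and 924 ± 605 CPM in Foxp1-deficient libraries (SD, n = 3 each). Msln, Upk3b, Upk1b and Krt19 were higher in the Foxp1-deficient library of 3 of 3 pairs, as were 16.5% of all genes. Lrrn4 was lower in pair 2 (-0.40 on the log2(CPM + 1) scale), and Wt1 had a log2 fold change of -0.16 and was lower in pairs 1 and 3. The 8 macrophage markers went the other way, with all 8 estimates negative (median -1.06, log2) and 0 called. Of these markers, 7 of 8 were lower in 3 of 3 pairs, against 16% of all genes. Their sum was 294 to 998 CPM in controls and 53.1 to 509 CPM in Foxp1-deficient libraries. Of the 8 erythroid markers, 6 had a positive estimate and 2 a negative one (median 0.22, log2), with 0 called. The erythroid sum was 664 to 3025 CPM in controls and 1777 to 3259 CPM in Foxp1-deficient libraries. The part of these cell types in the Slc2a1 difference was not tested.

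Phosphorylation of glucose was represented by Hk2, an inducible hexokinase (mm10, chromosome 6, 82725025 to 82774454). Hk2 was at 104, 62.8 and 75.0 CPM in controls 1 to 3, against 117, 25.9 and 66.7 CPM in the same-numbered Foxp1-deficient libraries. Both libraries numbered 2 were the lowest of their group, and the Foxp1-deficient range covered that of the controls. By edgeR the log2 fold change was -0.21 (SE 0.56). Pfkl, the liver-type subunit of phosphofructokinase, the committed step of the pathway (mm10, chromosome 10, 77986947 to 78010083), was at 64.2, 83.3 and 53.1 CPM in controls 1 to 3, against 74.5, 139.5 and 39.2 CPM in the same-numbered Foxp1-deficient libraries. Here both libraries numbered 2 were the highest of their group, and Foxp1-deficient 2 was the highest of all 6. The log2 fold change was 0.34 (SE 0.50), and it was -0.23 without Foxp1-deficient 2.

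Aldoa, the aldolase that splits the 6-carbon sugar (mm10, chromosome 7, 126795234 to 126809108), was at 900, 2372 and 909 CPM in controls 1 to 3, against 804, 2484 and 713 CPM in the same-numbered Foxp1-deficient libraries. The libraries numbered 2 held more than the other 4 in both genotypes, and within pairs the genotypes lay close together. On the log2 scale the difference was -0.06 (SE 0.68), and with the replicate block -0.15 (SE 0.15). Pgk1, which makes the first ATP of the pathway (mm10, chromosome X, 106187100 to 106203699), was at 451, 265 and 332 CPM in controls 1 to 3, against 456, 208 and 268 CPM in the same-numbered Foxp1-deficient libraries. Its order over library numbers was 1, 3, 2 in both genotypes, opposite to Aldoa at library 2. By edgeR the log2 fold change was -0.17 (SE 0.44).

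Eno1, the enolase of most tissues (mm10, chromosome 4, 150236721 to 150248879), was at 1331, 1757 and 1129 CPM in controls 1 to 3, against 1413, 1199 and 890 CPM in the same-numbered Foxp1-deficient libraries. The Foxp1-deficient library was lower in pairs 2 and 3 and slightly higher in pair 1. The log2 fold change was -0.27 (SE 0.42), and it was -0.27 again when the counts of the near copy Eno1b, which can share reads with Eno1, were added. Ldha, the muscle-type subunit of lactate dehydrogenase that favours lactate production (mm10, chromosome 7, 46841475 to 46855627), was at 591, 702 and 491 CPM in controls 1 to 3, against 649, 513 and 429 CPM in the same-numbered Foxp1-deficient libraries. It had the same pattern as Eno1, lower in pairs 2 and 3 and higher in pair 1. On the log2 scale the difference was -0.16 (SE 0.38).

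Pdk1, a kinase that switches off pyruvate dehydrogenase and so holds pyruvate back from the mitochondria (mm10, chromosome 2, 71873224 to 71903858), was at 15.5, 7.77 and 18.8 CPM in controls 1 to 3, against 14.2, 20.1 and 22.3 CPM in the same-numbered Foxp1-deficient libraries. Control 2 was the lowest library, and the groups overlapped. By edgeR the log2 fold change was 0.43 (SE 0.48), and most of it came from pair 2, where the difference was 1.27, against -0.12 and 0.24 in pairs 1 and 3. Bnip3, a mitochondrial outer membrane protein that recruits the autophagy machinery (mm10, chromosome 7, 138890836 to 138909519), was at 15.1, 6.41 and 11.4 CPM in controls 1 to 3, against 7.80, 2.30 and 13.1 CPM in the same-numbered Foxp1-deficient libraries. Foxp1-deficient 2 was the lowest library and rested on only 18 counts, against 61 to 285 in the other 5. The log2 fold change was -0.50 (SE 0.72), the estimate was negative in all 22 alternatives, from -1.21 to -0.07, and pair 3 went the other way.

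Vegfa, the growth factor that drives vessel growth under low oxygen (mm10, chromosome 17, 46016993 to 46032377), was at 81.4, 53.5 and 85.2 CPM in controls 1 to 3, against 76.0, 35.2 and 83.3 CPM in the same-numbered Foxp1-deficient libraries. It was the lower library of each pair in the Foxp1-deficient group, but by only 0.10 and 0.03 (log2) in pairs 1 and 3 and by 0.59 in pair 2. On the log2 scale the difference was -0.18 (SE 0.43), and 0.12 without Foxp1-deficient 2. For the 9 genes other than Slc2a1, the adjusted p by edgeR was 0.9998 without the block and between 0.853 and 0.8661 with it.

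Of the 10 genes, 3, Slc2a1, Pfkl and Pdk1, had a positive estimate and 7 a negative one, with a median log2 fold change of -0.17 (all genes tested, 0.03, with 53.6% positive). The control and Foxp1-deficient ranges were apart for 0 of the 10 genes, against 4.75% of all genes. A difference in the same direction in 3 of 3 pairs was seen for 2 of the 10 genes, against 32.5% of all genes: 1 upward (Slc2a1, against 16.5%) and 1 downward (Vegfa, against 16%). None of these counts stood above the background. Without both libraries numbered 2, the estimates of the 9 genes other than Slc2a1 lay between -0.34 (Bnip3) and 0.10 (Pdk1).

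**Figure D2:**
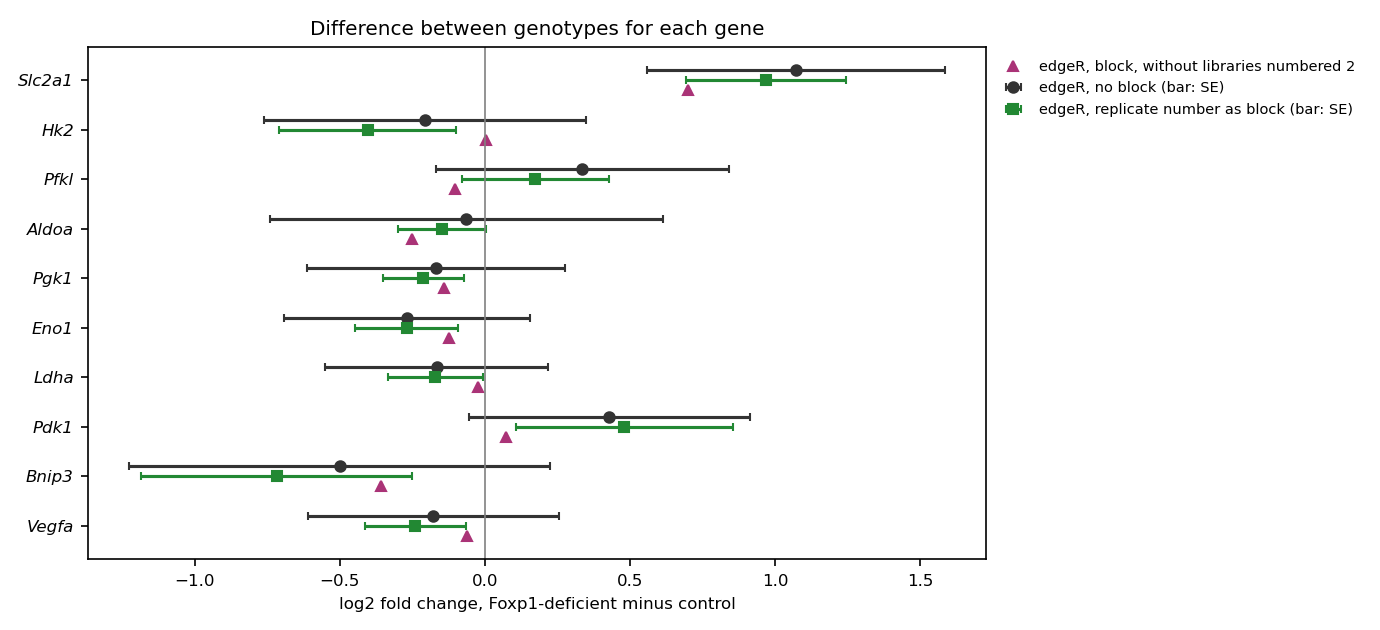
Log2 fold change of each gene, Foxp1-deficient minus control, from edgeR without a block (circles, bars are SE), with the replicate number as a block (squares, bars are SE) and with the block and without the libraries numbered 2 (triangles). Slc2a1 is the gene furthest from 0 in the first of these fits (1.07) and in the others lies at 0.97 and 0.70, while the other 9 genes lie between -0.72 and 0.48 in the fits with all 6 libraries.

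Levels between genes were compared as CPM per kilobase of annotated exon, which understates genes with many alternative exons. Over the 6 libraries, Aldoa was highest at 363 ± 220 CPM per kb, then came Eno1 at 239 ± 54.5, Ldha at 170.0 ± 31.1 and Pgk1 at 147 ± 46.0 (SD over 6 libraries). Slc2a1 followed at 57.1 ± 34.2, Pfkl at 17.2 ± 7.95, Vegfa at 16.1 ± 4.72 and Hk2 at 12.6 ± 5.39, and Bnip3 at 4.12 ± 2.08 and Pdk1 at 2.11 ± 0.667 were lowest. By these means Aldoa, Eno1, Ldha and Pgk1 stood above the transporter Slc2a1, the hexokinase Hk2 and the phosphofructokinase Pfkl. Neighbours in this order had overlapping ranges over the libraries. Within libraries, Eno1 was above Ldha, Pgk1 above Slc2a1, Slc2a1 above Pfkl and Hk2 above Bnip3 in 6 of 6, whereas Aldoa was above Eno1 in only 4 of 6 and Pfkl above Vegfa in only 2 of 6.

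Most of these steps had 1 leading isoenzyme, whose share differed between libraries. These partner genes were named after their values were seen. As a share of CPM per kb, Slc2a1 made up 90.2, 90.3 and 88.1% of the 3 facilitative transporters Slc2a1, Slc2a3 and Slc2a4 in controls and 94.5, 94.1 and 90.4% in Foxp1-deficient libraries. Pfkl was 63.4, 73.5 and 55.6% of the phosphofructokinases Pfkl, Pfkm and Pfkp in controls and 57.5, 62.3 and 47.0% in Foxp1-deficient libraries, the lower share of each pair in the Foxp1-deficient group.

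Eno1 was 68.0 to 70.0% of the enolases in the libraries numbered 2, where Eno1b was listed at 22.0 and 27.5%, and 87.6 to 96.9% in the other 4. Because Eno1b is a near copy of Eno1, this split is uncertain. Hk2 had the largest share of the hexokinases in all 6 libraries, at 75.8, 55.8 and 53.2% in controls and 79.6, 35.8 and 51.3% in Foxp1-deficient libraries 1, 2 and 3. Ldha was 66.1 to 83.5% of Ldha and Ldhb in controls and 67.5 to 93.8% in Foxp1-deficient libraries, and was the higher library of 3 of 3 pairs in the Foxp1-deficient group. Ldhb, the heart-type subunit, was at 55.3, 98.9 and 119 CPM in controls 1 to 3, against 20.4, 66.8 and 98.0 CPM in the same-numbered Foxp1-deficient libraries. Pdk1 was a minor kinase, at 3.64 to 14.3% of the 4 pyruvate dehydrogenase kinases, and Pdk3 made up 65.4 to 89.7% of them. Bnip3 was 22.2 to 23.6% of Bnip3 and Bnip3l in controls and 14.1, 9.45 and 24.2% in Foxp1-deficient libraries 1, 2 and 3.

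**Figure D3:**
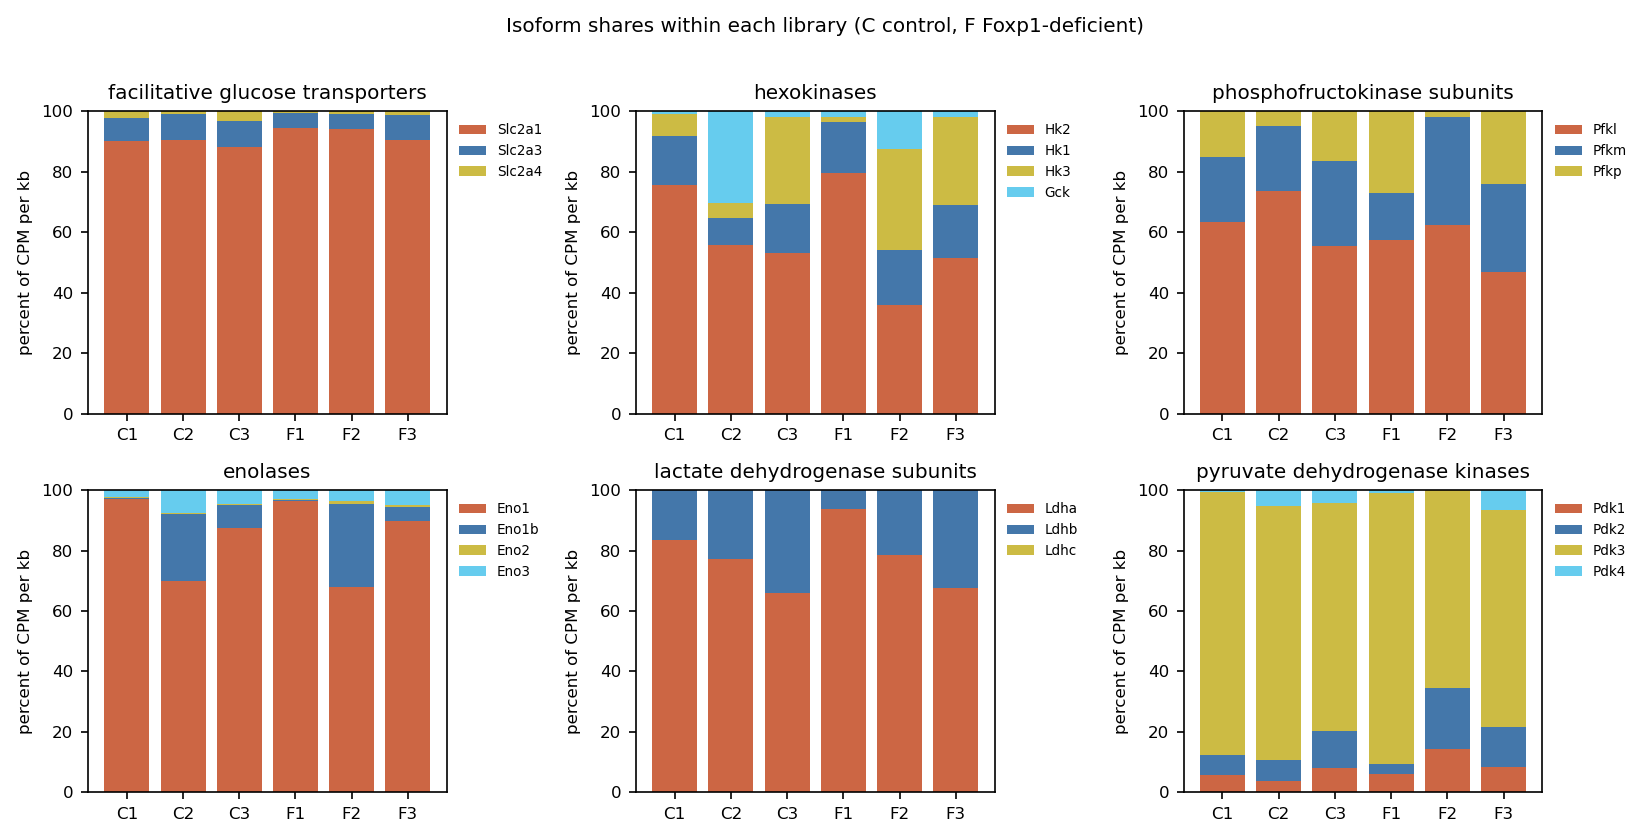
Share of CPM per kb (vertical axes, percent, from 0 to 100) that each isoenzyme takes in each of 6 libraries (C control, F Foxp1-deficient, with the library number) for 6 steps. Hk2 takes 75.8 and 79.6% of the hexokinases in the libraries numbered 1, and Eno1b takes 22.0 and 27.5% of the enolases in the libraries numbered 2.

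The 10 genes varied more with library number than with genotype, as all genes tested did by the median. Of the variation of log2(CPM + 1) over the 6 libraries, the library number took 97.7% for Aldoa, 89.6% for Pgk1, 85.7% for Vegfa and 79.5% for Pfkl, and genotype took 0.9989%, 6.57%, 6.91% and 2.43%. The median over all genes was 79.9% for the number and 5.57% for genotype, and a factor of 3 numbers takes a larger share than a factor of 2 genotypes without any effect. The number took the larger share for all 10 genes. Only Aldoa, Pgk1 and Vegfa lay above the median of all genes for the number. For Hk2, Bnip3, Ldha and Eno1 the number took 71.6, 69.2, 63.35 and 60.7%, and genotype took 9.13, 16.4, 12.2 and 19.9%. The shares were closest for Slc2a1, with 43.5% for the number and 42.8% for genotype, and Pdk1 had 34.7% and 25.0%. The mean of the libraries numbered 2 was 2.92 times that of the other 4 for Aldoa and 1.93 times for Pfkl, but 0.628 times for Pgk1, 0.544 for Vegfa, 0.49 for Hk2 and 0.368 for Bnip3. Enzymes of the same pathway thus went different ways. With Aldoa went Gpi1 (phosphoglucose isomerase, 3.03) and Tpi1 (triose phosphate isomerase, 2.76), and with Pgk1 went Pgam1 (phosphoglycerate mutase, 0.324). Gapdh lay between them at 1.24, and Pgam2, another mutase gene, went against Pgam1 at 4.13. These partners were named after their values were seen. Of the 10 genes, 5 were lowest in the libraries numbered 2 by the mean of each number, as were 15 of 22 other hypoxia response genes and 7 of 11 genes of the HIF pathway, against 48.07% of all genes.

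**Figure D4:**
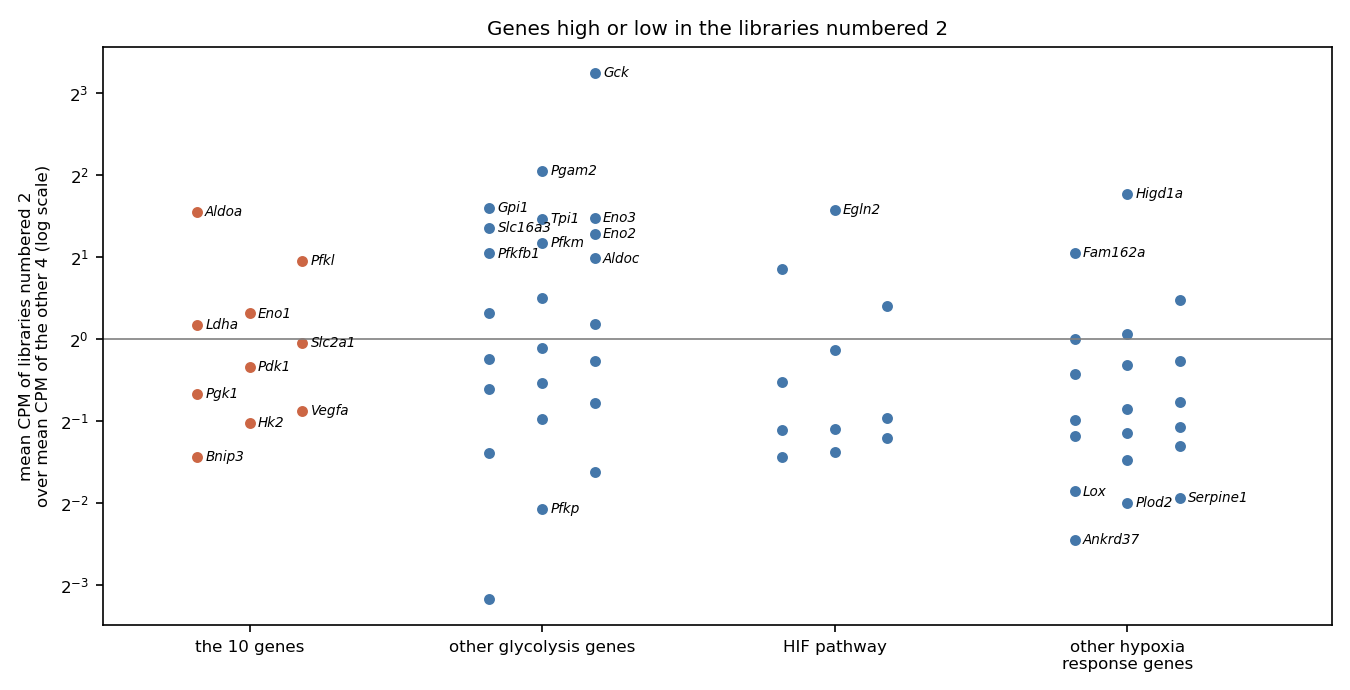
Mean CPM of the 2 libraries numbered 2 over the mean of the other 4 (vertical axis, log scale) for the 10 genes, other glycolysis genes, HIF pathway genes and other hypoxia response genes that were tested. Each point is a gene, and 3 of 68 genes that are at 0 in both libraries numbered 2 are not shown. Aldoa and Pfkl lie above 1 with Gpi1, Tpi1 and Higd1a, and Bnip3, Hk2 and Vegfa lie below it.

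Several of the 10 genes had like profiles over the libraries. Over the 6 libraries, log2(CPM + 1) of Eno1 and Ldha had a Pearson r of 0.97, Bnip3 and Vegfa 0.95, Hk2 and Pgk1 0.92, Hk2 and Vegfa 0.86, and Pfkl and Aldoa 0.82. Pfkl and Aldoa went against the genes of low level in the libraries numbered 2, with r of -0.92 for Aldoa with Vegfa, -0.90 for Pfkl with Bnip3 and -0.90 for Pfkl with Vegfa. Pdk1 went against Eno1 (-0.92) and Ldha (-0.90). For Slc2a1 the highest r was 0.52, with Pfkl. These are descriptions of 6 libraries that share depth and composition within each number. The mean standardized profile of the 10 was compared with 9133 candidates outside the lists, of at least 10 CPM on average. Most like it were Bzw2, G3bp1, Bcat1, Hspa9 and Rlim, each with r of 0.99. These 5 were picked as the highest of all candidates. Several of the 10 genes went against each other, so their mean profile need not resemble any of them.

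**Figure D5:**
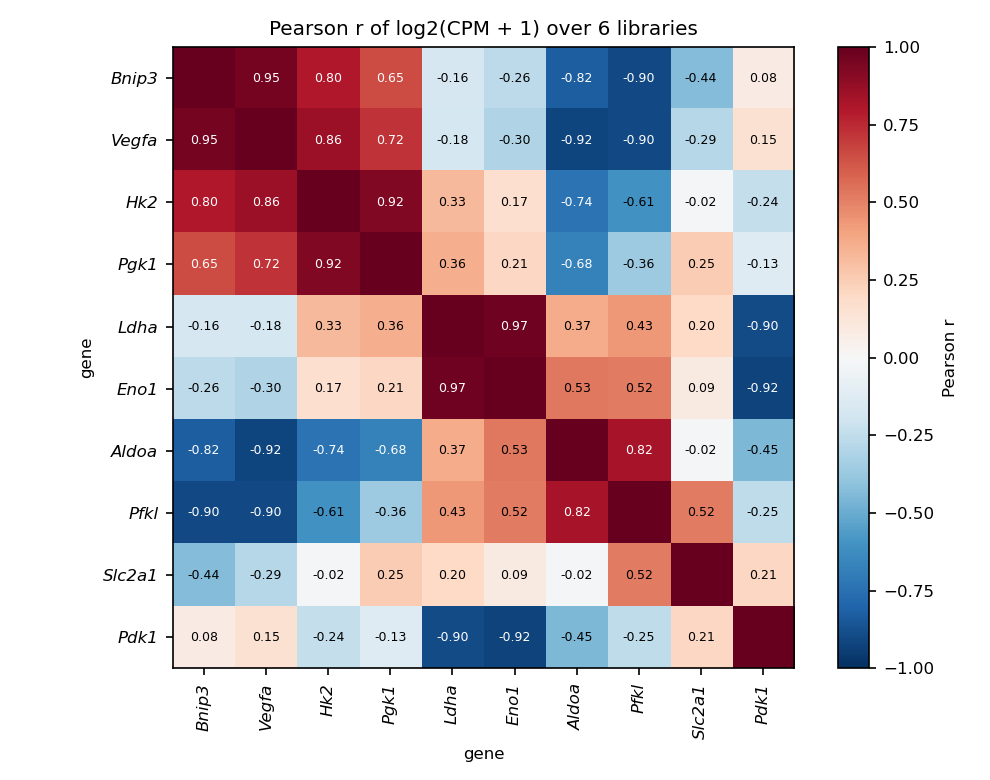
Pearson r of log2(CPM + 1) over the 6 libraries for each pair of the 10 genes (rows and columns), from blue (-1) to red (1). Bnip3, Vegfa, Hk2 and Pgk1 form 1 positive block, Eno1 and Ldha a pair, and Pfkl and Aldoa another, with Pfkl and Aldoa negative to Vegfa.

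The stretches before the transcription starts are shown for 4 genes, Slc2a1, Hk2, Pgk1 and Bnip3. These hold the HIF core ACGTG and have only 1 listed start. Aldoa, Ldha and Vegfa hold this core too but have more than 1 start and are not shown. All 10 genes matched the RefSeq promoter table of build GRCm38.p6. ACGTG, read as ACGTG or CACGT on both strands, was found in the 250 bases before a start in 7 of 10 genes (Slc2a1, Hk2, Aldoa, Pgk1, Ldha, Bnip3 and Vegfa), against 18.49% of 27025 genes in the table. The other core, GCGTG or CACGC, was also found in 7 of 10 (30.85% of all). A gene counted if any of its starts had a match, and some genes have more than 1 start. Per start, ACGTG was found before 8 of 17 (16.57% of all starts) and GCGTG before 9 of 17 (28.16%). Stretches before nearby starts overlap, so the same match can count more than once, as for ACGTG in Aldoa and GCGTG in Eno1. The ACGTG match of Vegfa is before a start inside the gene, and the stretch before its other start has 0. The forkhead core TAAACA or TGTTTA was found in 0 of 10 (13.54% of all). The 10 genes are textbook HIF targets, so the counts for its cores are not independent of the choice of genes. G and C made up 38.4 to 72.4% of the 17 stretches, and the shares over all genes were not matched for this. The counts therefore do not show that a core is enriched or missing. Such a match is a description of the letters and not a site in use. The stretches run from 250 to 31 bases before the start, 5′ to 3′ on the gene's strand, with ACGTG or CACGT in capitals. Slc2a1 is at chr4:119108495-119108714 (+ strand), Hk2 at chr6:82774485-82774704 (- strand), Pgk1 at chrX:106186850-106187069 (+ strand) and Bnip3 at chr7:138909537-138909756 (- strand).
Slc2a1: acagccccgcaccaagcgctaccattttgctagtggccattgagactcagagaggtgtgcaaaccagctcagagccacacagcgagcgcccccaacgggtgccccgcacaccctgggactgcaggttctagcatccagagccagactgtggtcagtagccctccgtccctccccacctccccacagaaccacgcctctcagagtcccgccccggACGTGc
Hk2: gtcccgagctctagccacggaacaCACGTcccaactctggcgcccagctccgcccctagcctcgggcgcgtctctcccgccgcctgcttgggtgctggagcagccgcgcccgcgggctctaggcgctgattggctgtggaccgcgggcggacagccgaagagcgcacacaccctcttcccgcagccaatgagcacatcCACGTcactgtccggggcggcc
Pgk1: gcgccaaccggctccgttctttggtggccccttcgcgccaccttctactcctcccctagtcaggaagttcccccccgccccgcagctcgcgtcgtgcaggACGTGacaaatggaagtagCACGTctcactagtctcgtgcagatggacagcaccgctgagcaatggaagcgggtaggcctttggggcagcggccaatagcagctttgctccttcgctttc
Bnip3: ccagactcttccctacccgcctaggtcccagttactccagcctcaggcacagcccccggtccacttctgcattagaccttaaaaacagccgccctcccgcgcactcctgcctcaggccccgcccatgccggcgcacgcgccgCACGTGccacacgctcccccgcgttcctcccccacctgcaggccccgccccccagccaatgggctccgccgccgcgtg
The match of Slc2a1 begins 36 bases before the start, and those of Hk2 begin 226 and 52 bases before it. Pgk1 has 2 matches, at 150 and 131 bases. In Bnip3 the palindrome CACGTG, which is in 2 of the 10 genes (Ldha and Bnip3) and 6.86% of all, gives matches on both strands that overlap.

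The rest of the pathway gave no call either. Among 25 other glycolysis genes tested, 0 were called, 11 were higher and 14 lower, with a median of -0.02. The lowest p values were for Pfkm, the muscle phosphofructokinase (0.76 log2, SE 0.60), Aldoc, the brain aldolase (0.87, SE 0.68), and Eno3, the muscle enolase (-0.80, SE 0.67). Pkm, pyruvate kinase, was the most abundant per length at 581 CPM per kb. Gapdh, often used as a reference gene and named after its values were seen, was at 1889, 2665 and 1944 CPM in controls 1 to 3, against 1858, 1852 and 1587 CPM in the same-numbered Foxp1-deficient libraries. Its groups were apart, with every Foxp1-deficient library below every control, as in 2.11% of all genes. The log2 fold change was -0.29 (SE 0.41, adjusted p = 0.9998 by edgeR).

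Of the 11 genes of pyruvate entry to mitochondria, 7 were higher and 4 lower (median 0.09) and 0 were called. Pdha1, the catalytic subunit of pyruvate dehydrogenase, was at 144, 43.8 and 110 CPM in controls 1 to 3, against 198, 68.3 and 138 CPM in the same-numbered Foxp1-deficient libraries, higher in 3 of 3 pairs. Its log2 fold change was 0.44 (SE 0.57), and with the block 0.47 (unadjusted p = 0.0168, adjusted p = 0.853 by edgeR). Pdhb, the beta subunit of the same enzyme, had a log2 fold change of -0.26 (SE 0.33). Of the 6 gluconeogenesis genes, 4 were tested (1 higher and 3 lower, median -0.15). Pck2, the mitochondrial carboxykinase, was -0.46 (SE 0.39), and Pck1, the cytosolic carboxykinase of the proximal tubule, reached 113 and 120 CPM in the libraries numbered 3 and was at 0 to 4.73 CPM in the other 4, where the tubule markers were lower as well. The part of tubule cells in this was not tested.

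Among the 11 genes of the HIF pathway, 5 were higher and 6 lower (median -0.06), with 0 called. Hif1a, the oxygen-regulated alpha subunit and named after its values were seen, was at 185, 61.3 and 133 CPM in controls 1 to 3, against 180, 53.8 and 130 CPM in the same-numbered Foxp1-deficient libraries. Within each pair the genotypes lay close, and both libraries numbered 2 were lowest. Of those with the lowest p, Hif3a was 0.37 (SE 0.60), Egln3, an oxygen-sensing hydroxylase, was 0.33 (SE 0.53), and Epas1, the alpha subunit HIF2, was -0.24 (SE 0.57). Of 22 other hypoxia response genes tested, 11 were higher and 11 lower (median 0.01), with 0 called.

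Lox, lysyl oxidase, which cross-links collagen, was at 354, 158 and 463 CPM in controls 1 to 3, against 984, 252 and 1173 CPM in the same-numbered Foxp1-deficient libraries. It was higher in the Foxp1-deficient library of 3 of 3 pairs, although the groups overlapped because Foxp1-deficient 2 lay below controls 1 and 3. By edgeR the log2 fold change was 1.30 (SE 0.68, adjusted p = 0.9998 by edgeR), and with the block 1.17 (unadjusted p = 0.00213, adjusted p = 0.467). Adm, the vasodilator peptide adrenomedullin, was -0.77 (SE 0.55), and Bhlhe40 was 0.38 (SE 0.37). Among the 9 genes of the VEGF family and its receptors, 3 were higher and 6 lower (median -0.11), with 0 called. Vegfd, a ligand of lymphatic vessel growth, was at 21.2, 22.8 and 30.9 CPM in controls 1 to 3, against 38.9, 38.0 and 40.1 CPM in the same-numbered Foxp1-deficient libraries. Its groups did not overlap, upward as in 2.64% of all genes, and the log2 fold change was 0.64 (SE 0.34, unadjusted p = 0.0989, adjusted p = 0.9998 by edgeR). Kdr, the main receptor of VEGFA on endothelium, was -1.07 (SE 0.83), while the 8 endothelium markers, Kdr among them, summed to 82.7 to 173 CPM in controls and 139 to 160 CPM in Foxp1-deficient libraries. Tek was the largest part of that sum (57.8 to 108 CPM in controls and 113 to 128 CPM in Foxp1-deficient libraries) and was higher in 3 of 3 pairs, whereas 6 of the 8 markers had a negative estimate, with a list median of -1.11 (log2) and -1.60 for Pecam1. None of the 8 was called by edgeR, and the part of endothelium in the VEGF family values was not tested.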

How the data were processed

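RNA bound to HA-tagged ribosomes was sequenced in 6 libraries. The authors deposited raw fragment counts for each gene symbol, and per the file headers featureCounts 1.5.1 made them from read pairs on mm10 exons (annotation version 86). No strand or multi-mapping option is recorded there, so antisense and near-identical genes cannot be told apart, and no source used here gives trimming or alignment settings. Bnip3 overlaps an opposite-strand row over 504 of 2265 exonic bases, and that row has 0 counts. Per the submitters' processing notes, STAR, Trimmomatic, FastQC, deepTools, SAMtools and DESeq2 were used, with no versions or roles given. Gene length, deposited by the authors in bases, was used for CPM per kb only.

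All genes were fitted with edgeR 4.0.16 (R 4.3.3; TMM, filterByExpr, quasi-likelihood F test, two-sided) and p-values were adjusted by Benjamini-Hochberg over 14311 genes at 0.05. Same-numbered libraries had correlated deviations (r = 0.71, 0.68 and 0.72), so the numbers were taken to pair them, from the data and not the labels. In the libraries, a count of 0 allows up to 3 counts, which equal 0.158 to 0.309 CPM, for counting error only. The model was tested on simulated data. Alternatives were other scalings and filters, DESeq2 1.42.0, limma-voom (limma 3.58.1), the block, and libraries left out. Every limma-voom fit, without or with the block, used quality weights for each library. Summing Eno1 with Eno1b was chosen after seeing the data. The members and gene lists were chosen with earlier results of these data known. Named genes were the 10, Foxp1, the 3 of lowest p and the most abundant per length of each list where none passed, near copies, and the 5 genes of most similar profile. A gene of the lists is not reported here. Others are said to be named after their values were seen. Figures used matplotlib 3.10.9.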

Additional observations from a re-analysis of the deposited data

How the results depend on the processing

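For the genes called over the whole table, edgeR gave 0 without the block, against 6 by DESeq2, 171 by DESeq2 with the replicate block, 244 by limma-voom with it, 30 with the block and without both libraries numbered 2, and 6 with the block and without both numbered 3. Of the 10 genes, 3 were higher, and 3 to 5 when each library was left out in turn (5 without control 1 and 5 without Foxp1-deficient 2). Their median log2 fold change stayed negative in all 22 alternatives, from -0.33 to -0.01, and was -0.19 with the replicate block. Slc2a1 passed the threshold only by DESeq2 with the replicate block (0.97, adjusted p = 0.0327). Signs turned for 5 genes. Pfkl was -0.15 by limma-voom, -0.0507 by limma-voom with the block, -0.23 without Foxp1-deficient 2, and -0.0393 and -0.10 (with the block) without both libraries numbered 2. Hk2 was 0.03 without control 1, 0.19 without Foxp1-deficient 2, and 0.0411 and 0.0061 (with the block) without both numbered 2. Aldoa was 0.54 without control 2, 0.18 without Foxp1-deficient 1, 0.22 without Foxp1-deficient 3 and 0.0062 without both numbered 3. Pgk1 was 0.0662 without control 1 and 0.06 without Foxp1-deficient 2, and Vegfa was 0.12 without Foxp1-deficient 2. Leaving out 1 library at a time gave -0.81 to 0.19 for Hk2, -0.23 to 0.66 for Pfkl, -0.87 to 0.54 for Aldoa, -0.56 to 0.0662 for Pgk1 and -0.41 to 0.12 for Vegfa. The cause was not tested. Depth limits Bnip3 most, with 18 counts in Foxp1-deficient 2.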
